A study of Strongylocentrotus droebachiensis with 6 samples.

Results

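CyI is a cytoskeletal actin gene, and it was 1 of 31261 gene rows measured by RNA sequencing in a sea urchin, Strongylocentrotus droebachiensis. It was chosen by its row name, with its difference between the groups already known. Its levels are therefore described here, and no test of CyI is used as support. The 3 half-size samples were embryos grown from blastomeres that were separated at the 2-cell stage, and the 3 control samples were intact sibling embryos. Both were labelled wild type, were raised at 8 °C and were collected as mesenchyme blastulae at 46 hours after fertilisation. Per the labels' protocols, gametes were obtained by injecting adults with KCl at 0.5 M, and fertilised eggs were held in 3-amino-1,2,4-triazole (ATA) at 1 mM, which keeps the fertilisation envelope soft. At 3.5 hours after fertilisation the 2-cell embryos spent 15 min in a wash that lacked calcium and magnesium, and a syringe needle then parted their cells. The labels do not say whether the intact embryos went through the wash and the needle as well. The adults came from 3 breeding seasons and from the Barents and White Seas, and the labels tie no sample to a season or a sea.

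Actin is the protein of the microfilaments that give cells their shape and drive cell division, cell movement and the bending of cell sheets. In the related purple sea urchin, Strongylocentrotus purpuratus, the cytoskeletal actins are a small family of very similar genes. There CyI is active in many cell types of the early embryo, while CyIIIa and CyIIIb are markers of the aboral ectoderm. At the mesenchyme blastula stage the skeleton-forming cells leave the epithelium and crawl into the blastocoel.

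CyI had 1051, 334 and 539 normalised read counts in the half-size libraries of pairs A, B and C, against 487, 164 and 384 in the control libraries of pairs A, B and C. A normalised read count is a gene's read count divided by 1 size factor per library, as the authors deposited it. The pairs were found from the values of all genes and are not stated in the labels, as set out with the processing. Within each pair the half-size library was the higher one, yet the groups overlapped: the lowest half-size library lay below the control libraries of pairs A and C. Half-size libraries averaged 641 ± 369 and control libraries 345 ± 165 (SD, n = 3 each), a ratio of 1.86. The difference between the means was thus smaller than the SD among the half-size libraries.

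**Figure D1:**
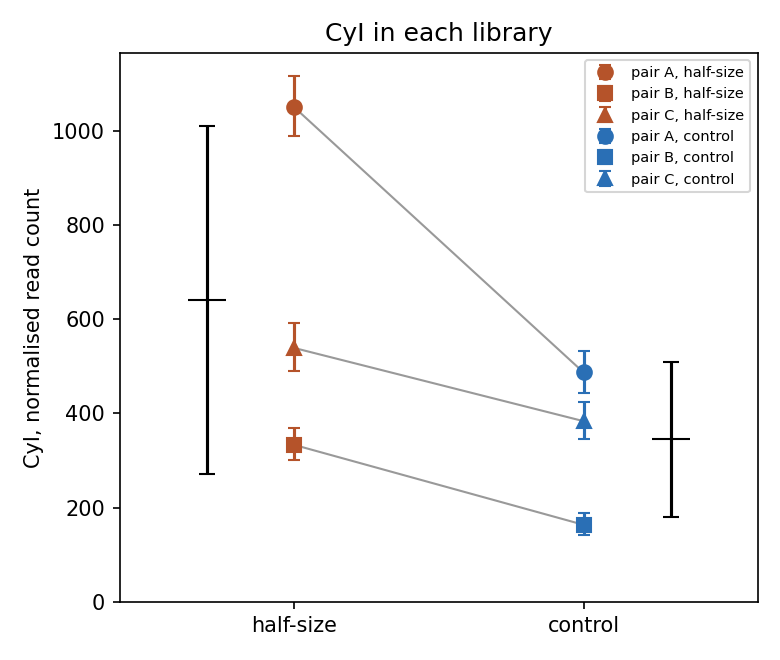
Normalised read count of CyI in each library (points, half-size on the left, control on the right), with bars for the 95% counting interval and grey lines joining the libraries of a pair. The black marks at the sides are the group means with their SD (641 ± 369 and 345 ± 165, n = 3 each). All 3 lines fall from left to right, and pair A lies highest and pair B lowest in both groups.

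The reads behind these values were recovered from the deposited values, as set out with the processing. The half-size libraries held 1061, 379 and 445 CyI reads in pairs A, B and C, and the control libraries held 476, 190 and 384. The total of a library is its recovered reads summed over all gene rows, so reads assigned to no gene are left out. Scaled by this total alone (CPM), CyI averaged 297 ± 163 CPM in half-size libraries and 164 ± 73.8 CPM in control libraries (SD, n = 3 each). Read totals ran from 1804336 to 2294541 in half-size and from 2092936 to 2284097 in control libraries, and CyI levels did not rise with them. The library of pair B had the highest read total and the lowest CyI level of each group. From high to low, the order of CyI levels was half-size of pair A, half-size of pair C, control of pair A, control of pair C, half-size of pair B and control of pair B. By exact Poisson intervals on the reads, which cover counting error only, some neighbours could not be told apart. The interval of the half-size library of pair C (490 to 592 normalised counts) overlapped that of the control library of pair A (444 to 533). Likewise the interval of the half-size library of pair B (301 to 369) overlapped that of the control library of pair C (346 to 424). The top and bottom libraries stood clear of the rest, at 989 to 1116 and 141 to 189.

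Within pairs, the ratio of half-size to control was 2.16 in pair A, 2.04 in pair B and 1.41 in pair C. The exact binomial 95% intervals of these ratios, again for counting error alone, were 1.93 to 2.41, 1.71 to 2.44 and 1.22 to 1.62. The ratio in pair C was therefore smaller than those in pairs A and B by more than counting error. On the log2(normalised count + 1) scale the pair differences, half-size minus control, were 1.11, 1.02 and 0.49. Differences at least as large as that of CyI were found in 1.57% of 11129 rows in pair A, 1.40% in pair B and 16.3% in pair C, where rows are those with a mean of at least 10.

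Over all libraries the log2 difference of CyI was 0.87 ± 0.46 (SE from limma-trend, the linear model fitted across all genes). With the pair as a block the difference stayed at 0.87 and its SE was 0.15. The pairs were taken from these same values, so the SE under the block may be too small. For CyI, the log2 fold change in the authors' deposited table was 0.90 with an SE of 0.45, and their mean signal was 493. A log2 difference at least as high as that of CyI was found in 84 of 11129 rows (0.755%). In 14.1% of rows all 3 pairs were higher in the half-size library, as they were for CyI. In 78 rows (0.701%) every pair difference was at least 0.49, the smallest of CyI. In 2.28% of rows the half-size libraries all lay above the control libraries without overlap, and CyI was not one of these.

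At adjusted p under 0.05, limma-trend with no pair term called 0 of 18016 rows (0%), with 242 at unadjusted p under 0.05. The counts were 0 in edgeR (129 unadjusted), 0 in limma-voom (118 unadjusted) and 4 in DESeq2 (0.0167%), and CyI was in none of them. With the block, CyI was not among the 3 rows called by limma-trend (0.0167%) or the 11 called by edgeR (0.097%), and it was among the 22 called by DESeq2 (0.0917% of 23995 tested rows). Only 5684 of those tested rows were given an adjusted p by DESeq2, so the share of rows that could be called is larger. In blocked limma-trend it was not among the 80 rows called without pair A, and it was among the 31 called without pair C. These calls belong to the contrast for which CyI was chosen and support nothing about it.

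The CyI values differed between the libraries of different pairs as well as between the half-size and control libraries of a pair. The highest library exceeded the lowest by 3.15-fold in half-size and by 2.98-fold in control embryos. On the log2 scale the SD was 0.83 in half-size and 0.82 in control libraries. Pooled over both groups it was 0.83, against a median of 0.37 over the 11129 rows, and 9.61% of rows had an SD at least that large. Of the sum of squares of CyI, the pair took 67.6%, the group 29.5% and the remainder 2.89%. Per degree of freedom the pair took 33.8% and the group 29.5%, since the pair has 2 degrees of freedom and the group 1. The medians over all rows were 65.5% for the pair, 6.45% for the group and 18.8% for the remainder. The pairs were chosen for their likeness over all rows, which tends to raise the share of the pair over the rows as a whole. How far it does so for CyI was not tested.

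The result leaned on single libraries when the pair was not in the model. The log2 difference became 0.44 ± 0.42 when the pair A half-size library was left out, and 0.41 ± 0.41 when the pair B control library was (SE). Leaving out the half-size library of pair B gave 1.26 and leaving out the control library of pair A gave 1.19. Differences between pairs enter these 4 values, because a pair then has 1 library only. Leaving out a whole pair keeps the groups balanced, and gave 0.76 without pair A, 0.80 without pair B and 1.07 without pair C.

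**Figure D2:**
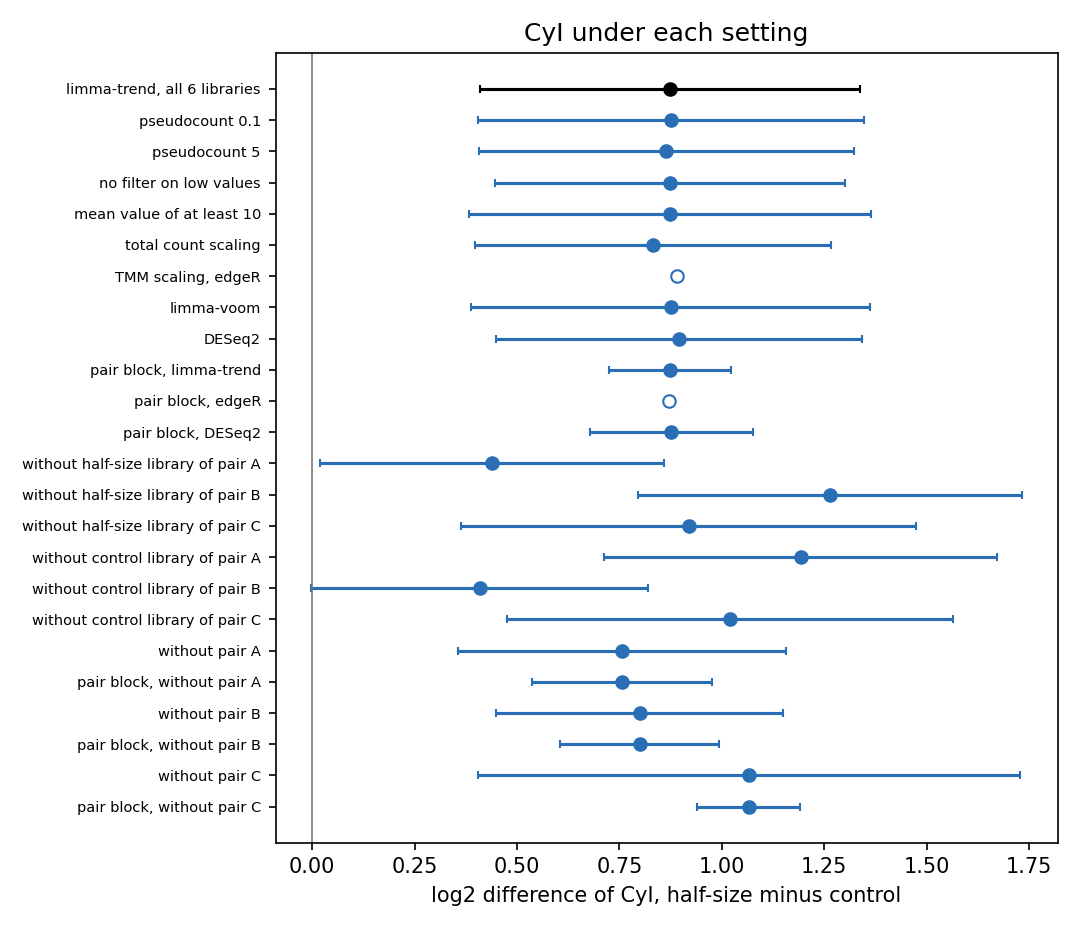
Log2 difference of CyI, half-size minus control, in the fit of all 6 libraries (black) and in the 23 alternatives (blue), with bars for the SE; open points are edgeR fits, which give no SE. All values lie above 0, between 0.41 and 1.26, and the bars are shortest where the pair is a block.

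The only other row with a cytoskeletal actin name was cyiiib, an aboral ectoderm actin in S. purpuratus. It held 0 reads in all 6 libraries, which allows at most 1.31 to 1.66 CPM in half-size and 1.31 to 1.43 CPM in control libraries (3 counts of each library's total, counting error only). No row carried the names CyII, CyIIa, CyIIb or CyIIIa, and actin genes under LOC identifiers are not analysed here, since the file does not pair those identifiers with names. Reads were assigned to genes of S. purpuratus. Cytoskeletal actins share most of their coding sequence, so reads from other actin genes may be counted in CyI, and CyI reads elsewhere. The CyI values and the 0 reads of cyiiib are uncertain for this reason in both groups. The 0 of cyiiib may thus not reflect its level in the embryos.

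The actin-related lists could be matched by symbol only, and few of their genes carry a symbol in the file. Of the actin-binding genes, 1 was matched. FSCN1, which encodes the actin-bundling protein fascin, had 1958, 2356 and 2612 normalised counts in the half-size libraries of pairs A, B and C, against 1843, 1699 and 2095 in the control libraries. It was higher in the half-size library of each pair, by 0.09, 0.47 and 0.32 on the log2 scale, and the groups overlapped in 1 place, where the half-size library of pair A lay below the control library of pair C. Its log2 difference was 0.29 ± 0.18 (SE) and did not pass (limma-trend adjusted p = 1.00; 0.936 with the pair as a block). FSCN1 did not share the order of libraries of CyI: its half-size level was lowest in pair A, where that of CyI was highest.

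Of the genes listed as possible regulators of actin genes or filaments, 5 were matched, and 0 passed in either direction. Their log2 differences were positive in 3 and negative in 2, with a median of 0.13, against a median of -0.000467 over all 18016 rows. SpRunt-1 and SpZ12-1 encode transcription factors that bind the CyIIIa control region in S. purpuratus. SpRunt-1 had 497, 658 and 490 normalised counts in half-size libraries of pairs A, B and C, against 360, 695 and 364 in control libraries, with a log2 difference of 0.27 ± 0.27 (SE). SpZ12-1 had 14.9, 24.6 and 19.4 in half-size libraries and 11.3, 18.9 and 11.0 in control libraries, and differed by 0.50 ± 0.37 (SE). Both had the highest level of their group in pair B, where CyI had the lowest. ROCK, a kinase that acts on actomyosin contraction, had 21.8 to 31.7 normalised counts in half-size and 22.5 to 28.0 in control libraries, a log2 difference of 0.13 ± 0.30 (SE). Oct, a POU-domain factor gene, differed by -0.25 ± 0.21 (SE), with -0.01, -0.40 and -0.33 in pairs A, B and C. GATAc, which encodes a zinc-finger transcription factor, differed by -0.06 ± 0.30 (SE), with 0.36, 0.13 and -0.67 in pairs A, B and C, and its sign turned to positive in edgeR (0.031) and DESeq2 (0.036). GCF1, whose product also binds the CyIIIa control region in S. purpuratus, was added after its values were seen and differed by -0.13 ± 0.18 (SE). No tubulin gene was matched.

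The pattern of CyI over the 6 libraries was then compared with that of every other row with a mean of at least 10. The measure was Pearson's r on log2(normalised count + 1). It is a description, since the 6 libraries share pairs and are not independent. Of 11128 rows, 37 (0.332%) reached r of at least 0.95, and none of the 192 rows with a gene name was among them. The median r over all rows was 0.01. The 6 named rows most like CyI were P16 (r = 0.90), sfk3 (0.90), MMP16 (0.90), pkd2 (0.90), rps15a (0.89) and H2A.F/Z (0.89).

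P16 encodes a membrane protein of the skeleton-forming cells. It had 1446, 535 and 669 normalised counts in the half-size libraries of pairs A, B and C, against 1012, 452 and 732 in the control libraries. As for CyI, pair A was highest and pair B lowest in both groups. Unlike CyI, P16 was lower in the half-size library of pair C, with pair differences of 0.51, 0.24 and -0.13. The gene sfk3, named as a Src-family kinase, had 61.4, 23.8 and 31.5 in half-size libraries and 50.1, 18.9 and 31.0 in control libraries. MMP16, a matrix metalloprotease gene, had 104, 36.1 and 38.8 in half-size libraries, against 64.5, 24.1 and 54.9 in control libraries. These 3 rows shared the high level in pair A and the low level in pair B with CyI in both groups. Of the 3, sfk3 alone was higher in the half-size library of all pairs, by 0.29, 0.31 and 0.02.

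The other like rows varied less. The log2 differences were 0.11 ± 0.26 for pkd2, a polycystin channel gene, 0.18 ± 0.20 for rps15a, a ribosomal protein gene, and 0.04 ± 0.19 for H2A.F/Z, a histone variant gene (SE). In pairs A and B each of these 3 had the higher value in half-size embryos, as CyI did, by 0.27 and 0.17 for pkd2, 0.23 and 0.40 for rps15a and 0.10 and 0.10 for H2A.F/Z. In pair C each had the lower value, by 0.12, 0.10 and 0.08. The most unlike named row, picked after its values were seen, was the homeobox gene NK2.2 (r = -0.96). NK2.2 had 324, 557 and 461 normalised counts in half-size libraries of pairs A, B and C, against 421, 821 and 621 in control libraries. Its libraries were thus lowest in pair A and highest in pair B in both groups, the reverse of CyI.

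**Figure D3:**
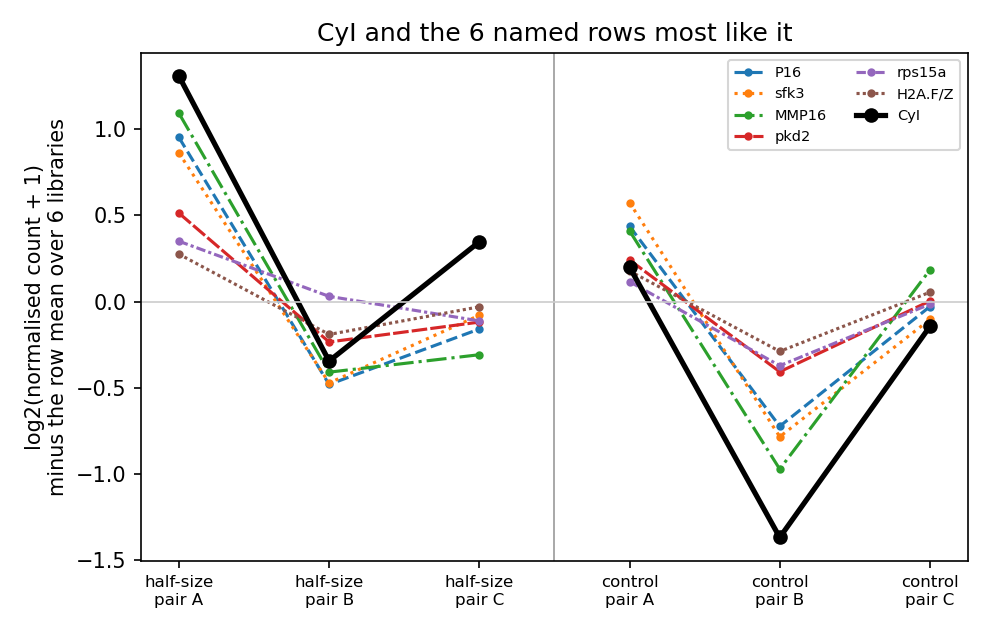
Log2(normalised count + 1) minus the row's own mean, for CyI (black) and the 6 named rows most like it (r from 0.89 to 0.90), in the half-size libraries on the left and the control libraries on the right. Within each group every row is highest in pair A, and lowest in pair B except rps15a among the half-size libraries; in the half-size library of pair C, CyI alone lies above 0.

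Markers of cell types moved between the pairs as well, and their part in the CyI values was not tested. All 8 matched skeletogenic markers, which mark the cells that define the labelled stage, were detected in every library. Their summed normalised counts ran from 3913 to 10710 in half-size and from 3824 to 7787 in control libraries. Both maxima were in pair A, which also held the highest CyI values of each group. Across the 6 libraries r with CyI was 0.80 for Alx1, the homeobox regulator of skeletogenic fate, 0.74 for the spicule matrix gene SM50 and 0.76 for msp130, a cell surface glycoprotein gene. It was 0.90 for P16, 0.68 for SM37 and 0.66 for SM30A. Over all rows the median r was 0.01, and the share of rows at r of 0.66 or more was not counted. The transcription factor genes dri (0.05) and ets1 (-0.67) did not share the pattern of CyI. The differences between the groups did not run in parallel. In pair C, CyI was higher in the half-size library by 0.49, whereas SM50, SM30A, SM37, P16, msp130 and Alx1 were lower by 0.49, 0.73, 0.68, 0.13, 0.49 and 0.31. Of the other 2 markers, dri was lower by 1.37 and ets1 was higher by 0.77. In bulk embryos, a change in the number of cells that express a gene and a change in RNA per cell cannot be told apart.

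**Figure D4:**
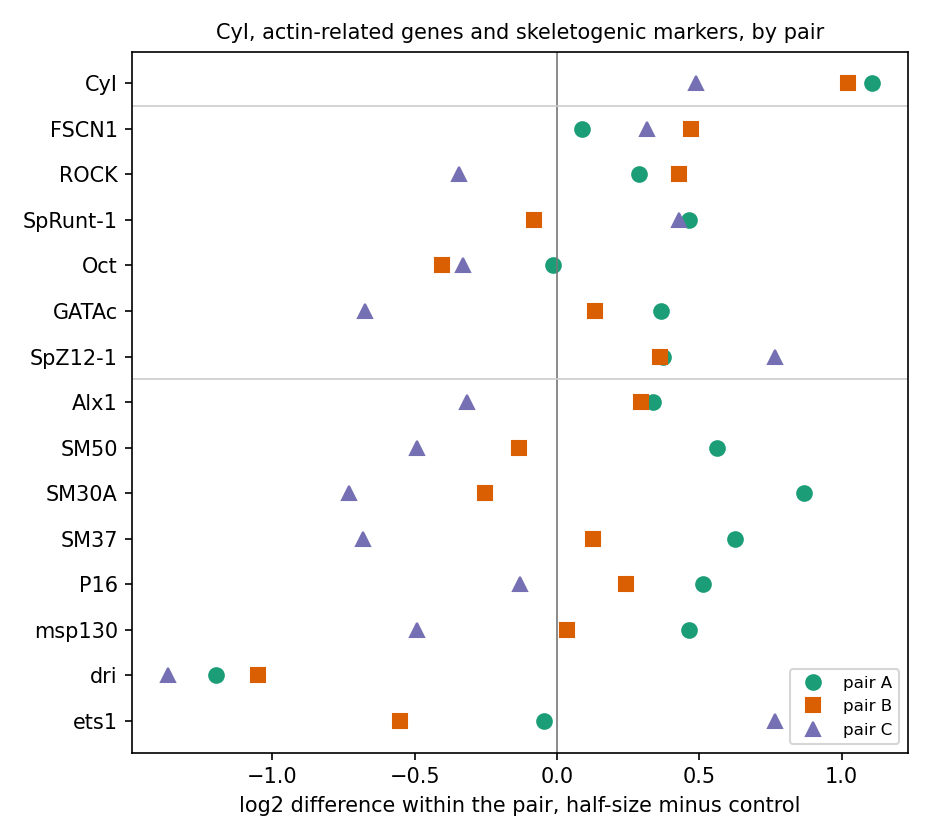
Log2 difference within each pair, half-size minus control (circle, pair A; square, pair B; triangle, pair C), for CyI at the top, the matched actin-binding and regulator genes in the middle and the skeletogenic markers at the bottom. CyI lies to the right of 0 in all 3 pairs (0.49 to 1.11), while most skeletogenic markers lie to the right in pair A and to the left in pair C.

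The other marker lists are given by their sums. The summed normalised counts of 6 matched aboral ectoderm markers ran from 3095 to 5337 in half-size and from 3161 to 4103 in control libraries, with cyiiib at 0. Most of this sum came from SPEC1, a calcium-binding protein gene, which averaged 3054 in half-size and 2536 in control libraries and had r = 0.73 with CyI. The homeobox genes of the list had negative r with CyI, at -0.69 for Dlx, -0.51 for Hbox7 and -0.48 for IrxA. Of 5 tested aboral ectoderm markers, 4 had negative log2 differences and the median was -0.61. That median is the value of ARS (SE 0.57), which held only 1.21 to 4.95 normalised counts in half-size and 3.07 to 5.00 in control libraries. IrxA (-0.49, -0.89 and -1.07 in pairs A, B and C) and Dlx (-0.78, -1.12 and -1.06) had lower values in half-size embryos in every pair without overlap of the groups, against the direction of CyI, and did not pass (limma-trend adjusted p = 1.00 each; 0.314 and 0.155 with the pair as a block). Hbox7 (-0.35, -0.30 and -0.04) was likewise lower in every pair without overlap, while the groups overlapped for SPEC1 and ARS. The share of all rows that were lower without overlap was not counted. The lack of overlap in these genes, and in GATAe and dri below, is therefore a description only. For the other direction, 2.28% of 11129 rows were higher without overlap. The sums of 4 endoderm markers ran from 4333 to 8499 in half-size and from 5035 to 8009 in control libraries. Of these, GATAe was lower in half-size embryos in every pair (-0.24, -0.50 and -0.89) without overlap of the groups. The groups overlapped for FoxA, blimp1/krox and Endo16. The sums of 3 non-skeletogenic mesoderm markers ran from 367 to 979 and from 543 to 991. For 4 oral ectoderm markers the ranges were 802 to 1182 in half-size and 876 to 1151 in control libraries. For 3 apical and ciliated cell markers they were 377 to 543 in half-size and 420 to 568 in control libraries. FoxJ1 (0.41, 0.09 and 0.74 in pairs A, B and C) and foxq2 (0.81, 0.36 and 0.67) were higher in half-size embryos in every pair. NK2.1 (-1.48, -0.77 and -0.85) was lower in every pair, and the groups overlapped for all 3. FoxJ1 had r = 0.73 with CyI, as high as SPEC1, against -0.38 for foxq2 and -0.57 for NK2.1. In limma-trend without the pair, 0 of the genes in these lists passed. With the pair as a block dri, a skeletogenic and oral ectoderm factor, passed (limma-trend adjusted p = 0.0469). The pairs were taken from these same values, so this p-value may be too low. The level of dri was lower in half-size embryos in every pair without overlap of the groups, the opposite direction to CyI.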

How the data were processed

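Polyadenylated RNA of 3 half-size and 3 control samples went into strand-specific libraries (labels' protocols). Bowtie2 2.2.2, DESeq and edgeR are named, without roles, in the submitters' processing notes. Gene identifiers follow the NCBI annotation of Spur_4.2, a purple sea urchin assembly, per the file headers. Neither the counting program nor the strand setting is given in the sources used here, so near-identical copies, overlapping and antisense genes cannot be separated. The authors deposited a signal, gene reads divided by a size factor per library. All values (100%) were whole multiples of the column's step within 1e-06, so reads were recovered. The same deposited table holds the authors' log2 fold changes, a score (fold change over error) and p-values, raw and adjusted.

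The columns name the group and not the sample, so pairs were taken from the values. Deviations from group means over 11129 rows correlated at r = 0.76, 0.63 and 0.52 in pairs A, B and C and at most at 0.01 elsewhere across the groups. Because the group means were removed, high values in the pairs push the values elsewhere down, so the low ones are no separate support for the pairs. Whether these are shared parents or batches is not stated in the labels. Errors and p-values under the block rest on pairs chosen from the same values, and may be too small. The labels call the samples biological replicates without naming separate parents, so errors measure only the spread between these samples. SEs came from limma 3.58.1 (limma-trend, run in R 4.3.3) fitted to log2(value + 1), which understates changes of low genes. Rows needed a mean of 1 or more, and p-values were adjusted after Benjamini-Hochberg, with calls made under 0.05. Recovered reads were also tested with edgeR 4.0.16, limma-voom and DESeq2 1.42.0. Named genes were CyI, other actin rows, up to 4 matched members of each list by mean, and the 6 named rows most like CyI. All 5 matched regulators are named, so SpZ12-1, the lowest of them by mean, goes beyond this rule. GCF1 and the cell type markers named in the text were added after their values were seen. CyI, the lists and the pairs were chosen with earlier results of these data known.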

Additional observations from a re-analysis of the deposited data

How the results depend on the processing

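The log2 difference of CyI (0.87) stayed positive in all 23 alternatives. Pseudocounts, filters, scalings and count tools gave 0.83 to 0.90, and leaving out a library or pair gave 0.41 to 1.26. The columns carry no replicate numbers, so the replicate block used pairs taken from the values; it gave 0.87 in limma-trend and edgeR and 0.88 with DESeq2. The number of called rows (0 by limma-trend) became 4 by DESeq2. With the replicate block it was 3 by limma-trend, 11 by edgeR and 22 by DESeq2. It ran from 0 to 80 when libraries or pairs were left out, with 80 without pair A and 31 without pair C, both under the block, and 0 in the other leave-outs. The cause was not tested. ROCK ran from -0.0276 (without pair B) to 0.36 over leave-outs. GATAc turned to 0.031 in edgeR and 0.036 in DESeq2, and ran from -0.36 to 0.30 over leave-outs. FSCN1, SpRunt-1, SpZ12-1 and Oct kept their sign in 23 alternatives each, but moved when a library or pair was left out: FSCN1 ran from 0.20 to 0.41, SpRunt-1 from 0.11 (without the pair A control) to 0.58 (without the pair B control), Oct from -0.37 (without pair A) to -0.10 (without the pair B control) and SpZ12-1 from 0.33 (without the pair B half-size library) to 0.74 (without the pair B control). Leaving out pairs under the block, and alternatives for genes other than CyI, were chosen after seeing the data. Alternatives for other actin rows could not be run, since cyiiib held no reads. The 190 to 1061 CyI reads per library limit the counting precision.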
